A study of Homo sapiens with 8 samples.

Results

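The genes described here are those of the E2F transcription factors and of the retinoblastoma (pocket) proteins that bind them. They are E2F1, E2F2, E2F3, E2F4, E2F5, E2F7, E2F8, RB1, RBL1 and RBL2, taken by symbol from the deposited count and TPM tables. They make 10 of the 46427 genes listed, and 10 of 10 passed the filter on low counts that left 18303 genes for testing.

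The cells came from H7, a human embryonic stem cell line, wild type in every group. They were grown for 21 days to lung progenitors, kept submerged on inserts for 3 days and then held at an air-liquid interface for 7 days, to give cells that the labels call differentiated type 2 alveolar cells (diff-AEC2). Bleomycin, a drug that breaks DNA and causes lung fibrosis in animals, was placed on the apical side for 24 hours. The 4 groups were the control and bleomycin at 24, 240 and 480 µg/ml, with 2 libraries of poly(A) RNA each. What the control received is not stated, and the stock concentration in the labels lies below each of the 3 doses. The series names fibrosis-related expression as its question, and the comparisons here ask how the cell-cycle control genes differed at each dose. The labels do not say that the 2 libraries of a group were separate cultures, so a p-value here reflects only how far these libraries lay apart, which may be technical.

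E2F proteins bind promoters of genes for DNA replication and division, most of them as a pair with a DP protein. E2F1, E2F2 and E2F3 are known as activators, E2F4 and E2F5 act mainly as repressors in complex with pocket proteins, and E2F7 and E2F8 repress without a DP partner. The pocket proteins RB1, RBL1 (p107) and RBL2 (p130) hold E2Fs in check until cyclin-dependent kinases phosphorylate them. After DNA damage p53 induces the kinase inhibitor CDKN1A, and E2F4 with RBL1 or RBL2 and the MuvB core forms the DREAM complex, which represses cell-cycle genes. Resting type 2 alveolar cells divide slowly and are known to re-enter the cycle after lung injury.

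Total counts per library lay between 53431773 and 67715984. Of 12 markers of type 2 cells 9 were tested, and their summed TPM was 118 to 126 in control, 119 to 139 at 24, 78.2 to 79.5 at 240 and 60.0 to 70.7 at 480 µg/ml. SFTPC, the surfactant gene that defines these cells, had 0 counts in 6 libraries and at most 7, and SFTPA1 and SFTPA2 had at most 2 and 7. Summed TPM of 9 hepatic markers reached 59900 to 64300 in control, 46300 to 66200 at 24, 82600 to 92000 at 240 and 70800 to 84700 at 480 µg/ml. For 7 intestinal markers it was 2600 to 2690, 1940 to 2550, 2010 to 2450 and 1760 to 2340 in the same dose order, and for 5 pluripotency markers 36.0 to 42.8, 36.6 to 42.0, 16.9 to 24.2 and 12.6 to 15.4. Mesenchymal markers (8) summed to 324 to 363, 317 to 325, 291 to 390 and 289 to 407 TPM in that order. At 480 µg/ml 5 of these 8 were called lower and 1 higher, with a median log2 fold change of -0.83, and at 240 µg/ml 3 were called lower. Of the other lists at 480 µg/ml, 5 of 9 type 2, 3 of 6 intestinal and 2 of 3 pluripotency markers tested were called lower, with 1, 1 and 0 higher, and 3 of 9 hepatic markers were called higher and 0 lower. Among all tested genes 13.9% were called lower and 13.9% higher at 480 µg/ml, and 5.17% lower at 240 µg/ml. The part that a changed mix of cells plays in the results below was not tested. In bulk RNA, fewer cells of a type and less RNA per cell cannot be told apart. The 2 libraries of 480 µg/ml lay further apart than those of the other groups: the median size of the log2 ratio between the 2 over all tested genes was 0.361 there, against 0.149, 0.15 and 0.145 in control, 24 and 240 µg/ml.

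Promoters are shown first because several of the E2F genes and RBL1 are themselves known E2F targets. RefSeq (GRCh38.p14) gave a window of 250 bases before to 50 bases after the annotated start for 7 of the 10 genes. The letters searched, on both strands, were TTTCCCGC, TTTGGCGC, TTTCGCGC and TTTGCCGC, which are forms of the E2F site. They are capitals in the sequences below, which run 5′ to 3′ on the gene's own strand. The E2F1 window is chr20:33686336-33686635 on the minus strand.
E2F1: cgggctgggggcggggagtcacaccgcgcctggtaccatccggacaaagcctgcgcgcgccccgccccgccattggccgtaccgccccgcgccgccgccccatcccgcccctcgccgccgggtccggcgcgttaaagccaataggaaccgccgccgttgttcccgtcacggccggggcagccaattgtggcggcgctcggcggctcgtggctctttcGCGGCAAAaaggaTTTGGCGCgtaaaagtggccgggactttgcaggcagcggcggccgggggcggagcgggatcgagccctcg
The E2F2 window is chr1:23531184-23531483 on the minus strand.
E2F2: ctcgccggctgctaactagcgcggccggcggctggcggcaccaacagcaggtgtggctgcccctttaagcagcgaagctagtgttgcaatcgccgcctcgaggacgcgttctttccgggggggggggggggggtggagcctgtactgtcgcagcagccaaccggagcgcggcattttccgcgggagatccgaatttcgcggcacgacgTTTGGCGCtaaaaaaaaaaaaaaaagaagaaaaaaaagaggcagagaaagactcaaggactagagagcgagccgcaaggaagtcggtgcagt
The E2F3 window is chr6:20401629-20401928 on the plus strand.
E2F3: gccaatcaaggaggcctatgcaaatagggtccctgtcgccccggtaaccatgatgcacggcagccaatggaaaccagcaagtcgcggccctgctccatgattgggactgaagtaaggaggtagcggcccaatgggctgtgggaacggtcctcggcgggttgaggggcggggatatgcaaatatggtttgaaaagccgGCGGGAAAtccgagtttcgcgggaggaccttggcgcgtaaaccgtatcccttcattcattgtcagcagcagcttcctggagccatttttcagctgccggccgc
The RBL1 window is chr20:37095948-37096247 on the minus strand.
RBL1: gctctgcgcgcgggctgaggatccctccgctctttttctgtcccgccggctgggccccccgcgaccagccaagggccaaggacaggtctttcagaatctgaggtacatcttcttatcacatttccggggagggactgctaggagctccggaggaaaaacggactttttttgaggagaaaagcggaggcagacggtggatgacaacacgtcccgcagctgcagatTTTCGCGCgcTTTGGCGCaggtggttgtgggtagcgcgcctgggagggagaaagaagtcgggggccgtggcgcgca
The windows of E2F4 and RBL2, whose fitted levels were not called different at any dose, are chr16:67191905-67192204 and chr16:53434221-53434520, both on the plus strand.
E2F4: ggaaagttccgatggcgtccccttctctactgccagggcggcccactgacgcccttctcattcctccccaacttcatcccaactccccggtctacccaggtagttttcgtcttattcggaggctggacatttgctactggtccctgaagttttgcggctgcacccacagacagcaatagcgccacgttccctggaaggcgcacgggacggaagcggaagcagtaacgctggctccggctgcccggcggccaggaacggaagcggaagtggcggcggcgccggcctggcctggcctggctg
RBL2: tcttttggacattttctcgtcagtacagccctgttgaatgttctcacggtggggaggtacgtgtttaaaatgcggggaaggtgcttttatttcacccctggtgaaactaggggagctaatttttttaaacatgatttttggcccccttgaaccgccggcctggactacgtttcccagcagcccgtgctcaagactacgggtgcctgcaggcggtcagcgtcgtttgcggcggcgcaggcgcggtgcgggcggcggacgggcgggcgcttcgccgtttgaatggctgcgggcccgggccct
A match stood in 4 of the 7 windows (E2F1, E2F2, E2F3 and RBL1) and in none of the other 3 (E2F4, E2F7 and RBL2). Of 35116 RefSeq promoter windows, 1164 held one, which is 3.31%. E2F1 had matches at -33 to -26 and at -20 to -13 relative to its start, the first of them read on the opposite strand. RBL1 had matches at -26 to -19 and -16 to -9, E2F2 had one at -42 to -35 and E2F3 one at -53 to -46, again on the opposite strand. These are matches of letters, not measured sites. The absence of a match says only that these letters are not in this window.

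In the control cells E2F5, E2F4, RB1 and RBL2 stood above the activators. On the TPM scale, which is per length and can be compared between genes, E2F5 was highest at 51.7 ± 1.29 (SD, n = 2, as for all levels below). It was followed by E2F4 at 30.9 ± 0.153 and RB1 at 29.4 ± 4.26, whose libraries overlapped. RBL2 had 22.6 ± 2.95, E2F3 11.04 ± 0.718, E2F1 7.41 ± 0.538 and E2F7 6.66 ± 1.35 TPM, and the libraries of E2F1 and E2F7 overlapped. RBL1 at 3.91 ± 0.833 and E2F8 at 3.23 ± 0.581 TPM overlapped too, and E2F2 was lowest at 1.43 ± 0.214 TPM. At 480 µg/ml RB1, E2F4, E2F5 and RBL2 could no longer be ordered, since the libraries of each overlapped with the next, at mean levels of 33.0, 28.9, 26.5 and 19.9 TPM. E2F2 was lowest in all 4 groups.

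**Figure D1:**
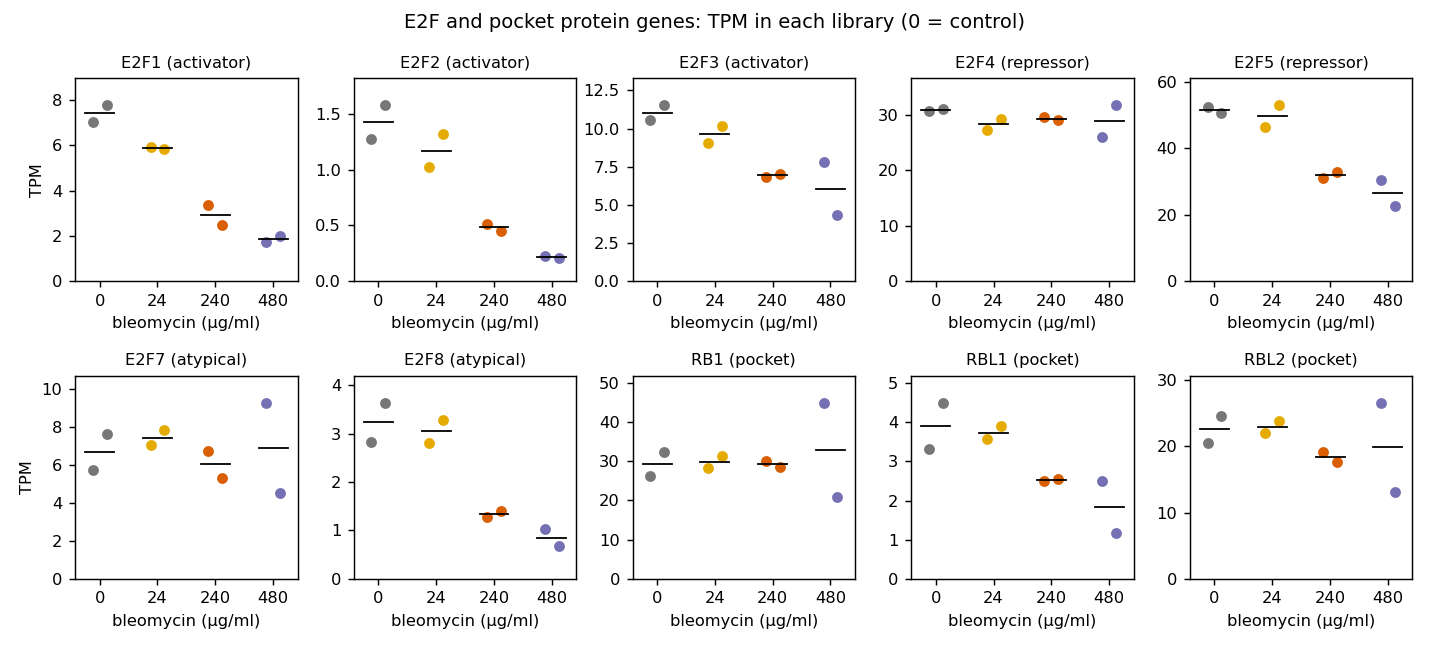
TPM of each gene in each library (points) with the mean of the 2 libraries (bars), by bleomycin dose in µg/ml, with 0 for control. E2F1, E2F2 and E2F8 step down at 240 and again at 480 µg/ml, E2F4 averages 28.9 TPM at 480 and 30.9 TPM in control, and the 2 libraries of 480 µg/ml lie far apart for RB1, RBL2 and E2F7.

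The 3 activator genes were lower at the higher doses, E2F1 and E2F2 from 240 µg/ml on and E2F3 at 480 µg/ml. At 480 µg/ml E2F2 was at 17.0% of its control level, E2F1 at 26.4% and E2F3 at 54.7%. These percentages come from an edgeR quasi-likelihood fit over all 8 libraries, in which a gene is called where its adjusted p over 18303 genes is under 0.05. All log2 fold changes below are from this fit, with their SE.

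E2F1 (chromosome 20, 33675477 to 33686385) is an activator that also promotes cell death when DNA is damaged. Its TPM was 7.03 and 7.79 in control, 5.92 and 5.83 at 24, 3.36 and 2.47 at 240 and 1.72 and 1.98 at 480 µg/ml. The 4 groups did not overlap, and the order followed the dose. The log2 fold change against control was -0.34 ± 0.202 at 24 µg/ml (adjusted p = 1.0), -1.24 ± 0.209 at 240 µg/ml (adjusted p = 0.0104) and -1.92 ± 0.215 at 480 µg/ml (adjusted p = 0.00058). At 240 µg/ml the call was lost without control replicate 1 (adjusted p = 0.0706), control replicate 2 (0.0787) or 240 µg/ml replicate 2 (0.106). Over all alternatives of that comparison the adjusted p ran from 3.05e-05 to 0.106.

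E2F2 (chromosome 1, 23505212 to 23531233), an activator close to E2F1, was the least abundant of the 10, with 28 and 34 counts at 480 µg/ml against 166 and 184 in control. Its TPM was 1.28 and 1.58 in control, 1.02 and 1.32 at 24, 0.510 and 0.453 at 240 and 0.226 and 0.210 at 480 µg/ml. Control and 24 µg/ml overlapped, and both higher doses lay apart from them and from each other. It fell by 1.42 ± 0.216 on the log2 scale at 240 µg/ml (adjusted p = 0.00738) and by 2.56 ± 0.232 at 480 µg/ml (adjusted p = 0.000271). Leaving out any 1 of the 2 control or the 2 libraries of 240 µg/ml moved the adjusted p at 240 µg/ml to 0.0545, 0.0645, 0.053 and 0.0829, in the order control 1, control 2, 240 µg/ml 1 and 240 µg/ml 2. Over all alternatives it ran from 0.000203 to 0.0829.

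E2F3 (chromosome 6, 20401879 to 20493714), the most abundant activator, had 10.5 and 11.6 TPM in control, 9.06 and 10.2 at 24, 6.83 and 7.05 at 240 and 7.81 and 4.32 at 480 µg/ml. The 480 µg/ml libraries lay on either side of those of 240 µg/ml. The log2 fold change was -0.61 ± 0.168 at 240 µg/ml, which narrowly missed the threshold (adjusted p = 0.0504), and -0.87 ± 0.169 at 480 µg/ml (adjusted p = 0.0059). E2F3 was called at 240 µg/ml by DESeq2 (adjusted p = 0.0159), without the filter on low counts (0.0129), with a stricter filter (0.0444), with the 2 groups alone (0.00119), and without 480 µg/ml replicate 1 (0.00163) or replicate 2 (0.00159). Its adjusted p over all alternatives at 240 µg/ml ran from 0.00119 to 0.246. The table listed 2 pseudogene copies, E2F3P1 and E2F3P2, with at most 1 and 6 counts.

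**Figure D2:**
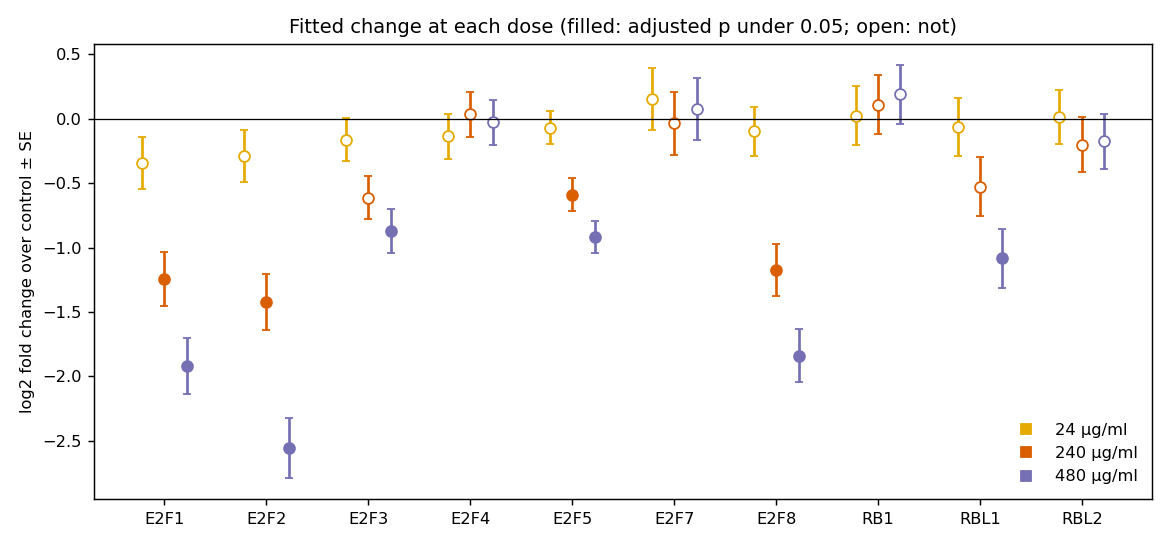
Fitted log2 fold change of each gene over control at 24, 240 and 480 µg/ml, with bars of 1 SE; filled points have an adjusted p under 0.05. E2F1, E2F2 and E2F8 lie lowest at 480 µg/ml, at -1.92, -2.56 and -1.84, and E2F4, E2F7, RB1 and RBL2 lie near 0 at each dose.

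Of the 2 repressor genes E2F5 fell and E2F4 was not called. The difference between genes was not tested, here or in the other classes. E2F4 (chromosome 16, 67192155 to 67198918), the E2F of the DREAM complex, had 30.8 and 31.0 TPM in control, 27.3 and 29.2 at 24, 29.6 and 29.1 at 240 and 25.96 and 31.82 at 480 µg/ml. The 480 µg/ml libraries enclosed those of control. Its log2 fold change was 0.04 ± 0.174 at 240 µg/ml (adjusted p = 0.921) and -0.03 ± 0.174 at 480 µg/ml (adjusted p = 0.933). The value at 480 µg/ml depended on the library: it was 0.22 ± 0.095 without replicate 1 (adjusted p = 0.0951) and -0.34 ± 0.0999, called lower, without replicate 2 (adjusted p = 0.0295). The pseudogene copy E2F4P1 had 0 counts.

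E2F5 (chromosome 8, 85177154 to 85214518), a repressor that acts mainly with RBL2, had 52.6 and 50.8 TPM in control, 46.3 and 53.2 at 24, 31.1 and 32.9 at 240 and 30.4 and 22.7 at 480 µg/ml. Both higher doses lay below control and 24 µg/ml. It fell by 0.59 ± 0.126 on the log2 scale at 240 µg/ml (adjusted p = 0.023) and by 0.92 ± 0.127 at 480 µg/ml (adjusted p = 0.00134), to 52.9% of control. The call at 240 µg/ml was lost when any 1 library of control, 24 or 240 µg/ml was left out: the adjusted p was 0.186 and 0.114 without control replicate 1 and 2, 0.0505 and 0.0502 without 24 µg/ml replicate 1 and 2, and 0.164 and 0.154 without 240 µg/ml replicate 1 and 2. The range over all alternatives was 0.00106 to 0.186. E2F5 shares 969 exon bases with RBIS on the opposite strand, and the strand counted is not stated. RBIS was not called (log2 fold change 0.12 ± 0.148 at 240 and 0.15 ± 0.148 at 480 µg/ml, adjusted p = 0.657 and 0.475). Reads of the shared bases cannot be told apart.

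Of the 2 atypical repressor genes E2F8 fell and E2F7 was not called. E2F8 (chromosome 11, 19224063 to 19241655), known from mouse, with E2F7, for making liver and trophoblast cells polyploid, had 2.82 and 3.64 TPM in control, 2.81 and 3.28 at 24, 1.29 and 1.41 at 240 and 1.02 and 0.683 at 480 µg/ml. The higher doses did not overlap with control or 24 µg/ml. Its log2 fold change was -1.17 ± 0.2 at 240 µg/ml (adjusted p = 0.0109) and -1.84 ± 0.207 at 480 µg/ml (adjusted p = 0.000587), where 28.0% of the control level was left. At 240 µg/ml the adjusted p was 0.0559 and 0.0959 without control replicate 1 and 2 and 0.0852 and 0.092 without 240 µg/ml replicate 1 and 2, and it ran from 0.000398 to 0.0959 over all alternatives.

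E2F7 (chromosome 12, 77021251 to 77065569), a repressor known both as an E2F target and as a p53 target, had 5.71 and 7.62 TPM in control, 7.05 and 7.84 at 24, 6.75 and 5.30 at 240 and 9.29 and 4.54 at 480 µg/ml. The 480 µg/ml libraries were the highest and the lowest of the 8. Its log2 fold change was -0.04 ± 0.242 at 240 µg/ml (adjusted p = 0.945) and 0.07 ± 0.241 at 480 µg/ml (adjusted p = 0.849). Without 480 µg/ml replicate 1 the value at 480 µg/ml turned to -0.37 ± 0.178 (adjusted p = 0.129). E2F7 over E2F8 was 2.02 and 2.09 as a ratio of TPM in control, 2.50 and 2.39 at 24, 5.25 and 3.76 at 240 and 9.09 and 6.66 at 480 µg/ml. This ratio did not overlap between any 2 of the 4 groups.

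Among the pocket protein genes RBL1 fell at 480 µg/ml, and RB1 and RBL2 were not called. RBL1 (chromosome 20, 36996349 to 37095997), known to be higher in dividing than in resting cells, is a known E2F target. It had 3.33 and 4.50 TPM in control, 3.56 and 3.90 at 24, 2.49 and 2.54 at 240 and 2.49 and 1.17 at 480 µg/ml. All 4 libraries of the higher doses lay below all 4 others. The log2 fold change was -0.53 ± 0.227 at 240 µg/ml (adjusted p = 0.176) and -1.08 ± 0.231 at 480 µg/ml (adjusted p = 0.00888), to 47.2% of control. The call at 480 µg/ml was lost without control replicate 2 (-0.89 ± 0.277, adjusted p = 0.0758, range over all alternatives 5.67e-05 to 0.0758). At 240 µg/ml it was called with the 2 groups alone (adjusted p = 0.0243) and without 480 µg/ml replicate 1 (0.027) or 2 (0.0268), within a range of 0.0243 to 0.616.

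RB1 (chromosome 13, 48303751 to 48481890), the retinoblastoma tumour suppressor, had 26.4 and 32.4 TPM in control, 28.3 and 31.3 at 24, 30.1 and 28.6 at 240 and 44.98 and 20.97 at 480 µg/ml. The 480 µg/ml libraries were again the highest and the lowest of the 8, with 5032 and 3062 counts. Its log2 fold change was 0.11 ± 0.229 at 240 µg/ml (adjusted p = 0.805) and 0.19 ± 0.229 at 480 µg/ml (adjusted p = 0.566). Without 480 µg/ml replicate 2 RB1 was called higher (0.55 ± 0.107, adjusted p = 0.00476), and without replicate 1 the value was -0.29 ± 0.11 (adjusted p = 0.0597). The genes LPAR6 and RCBTB2 overlap RB1 on the opposite strand with 0 shared exon bases and had at most 173 and 161 counts.

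RBL2 (chromosome 16, 53434471 to 53491648), the pocket protein of resting cells and a DREAM subunit, had 20.5 and 24.6 TPM in control, 21.97 and 23.84 at 24, 19.1 and 17.7 at 240 and 26.6 and 13.1 at 480 µg/ml. At 240 µg/ml both libraries lay below control, and at 480 µg/ml they lay above and below it. The log2 fold change was -0.20 ± 0.213 at 240 µg/ml (adjusted p = 0.594) and -0.17 ± 0.213 at 480 µg/ml (adjusted p = 0.577). It was 0.15 ± 0.105 without 480 µg/ml replicate 2 (adjusted p = 0.293) and -0.61 ± 0.108, called lower, without replicate 1 (adjusted p = 0.00217). RBL2 shares 610 exon bases with AKTIP on the opposite strand, which was not called at 480 µg/ml (0.16 ± 0.132, adjusted p = 0.393), and reads of these bases cannot be told apart. RBL2 over RBL1 as a ratio of TPM was 6.16 and 5.47 in control, 6.17 and 6.11 at 24, 7.68 and 6.95 at 240 and 10.7 and 11.2 at 480 µg/ml. The ratio at 480 µg/ml was above every other library and differed little between its 2 libraries, unlike the levels of either gene.

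The make-up of the E2F transcripts differed with dose. The summed TPM of the 7 E2F genes was 112 ± 2.26 in control, 105 ± 7.96 at 24, 79.0 ± 0.566 at 240 and 71.3 ± 7.18 at 480 µg/ml. The activators held 17.0% and 18.4% of it in control, 16.1% and 15.6% at 24, 13.5% and 12.7% at 240 and 12.8% and 9.82% at 480 µg/ml. E2F4 over E2F1 was 4.38 and 3.98 in control, 4.62 and 5.01 at 24, 8.81 and 11.8 at 240 and 15.1 and 16.1 at 480 µg/ml. This ratio was higher at each step of dose, without overlap between groups. E2F4 alone held 27.8% and 27.2% of E2F TPM in control, 27.5% and 26.4% at 24, 37.3% and 37.0% at 240 and 34.0% and 48.0% at 480 µg/ml. E2F5 alone held 47.48% and 44.55% in control and 39.77% and 34.25% at 480 µg/ml. The shares of the other classes overlapped between control and 480 µg/ml. E2F4 with E2F5 held 75.28% and 71.75%, then 73.74% and 82.29%. E2F7 with E2F8 held 7.70% and 9.88%, then 13.49% and 7.89%. The pocket protein genes summed to 55.8 ± 8.05 TPM in control, 56.5 ± 3.68 at 24, 50.2 ± 2.05 at 240 and 54.7 ± 27.4 at 480 µg/ml. These sums and ratios are descriptions without a test.

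**Figure D3:**
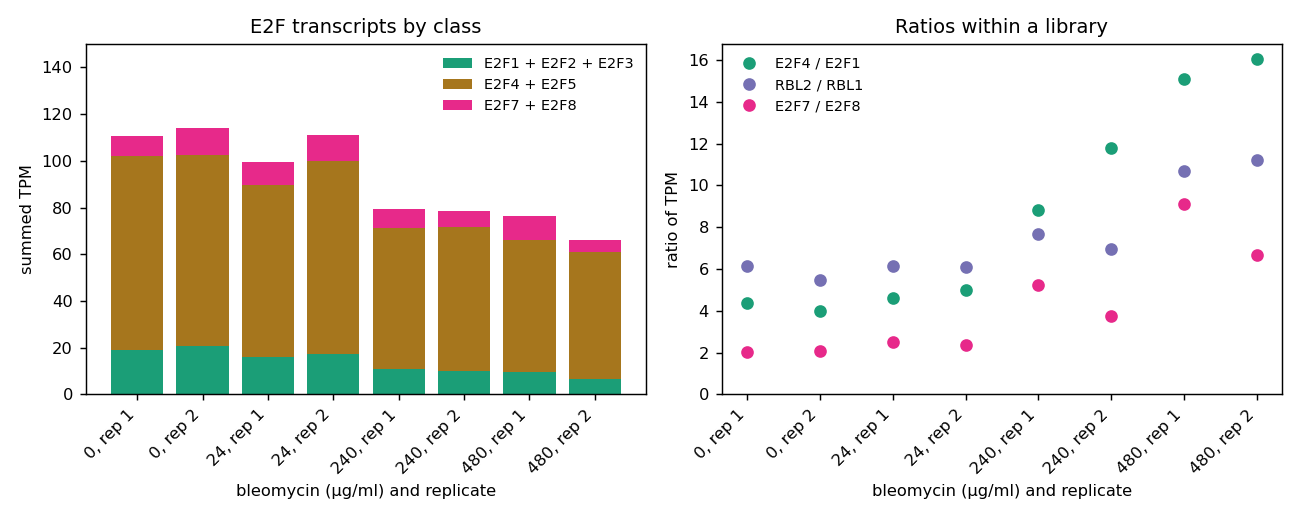
Left, summed TPM of the activators (E2F1 to E2F3), of E2F4 with E2F5 and of the atypical E2F7 with E2F8 in each library; right, 3 ratios of TPM within each library, with 0 for control. The total is 111 and 114 TPM in the control libraries and 76.4 and 66.3 TPM at 480 µg/ml, while E2F4 over E2F1 reaches 15.1 and 16.1.

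Counted over the 10 genes, 0 were called at 24 µg/ml against control, where 0.0% of all tested genes were called by edgeR. DESeq2 and limma on TPM called 0 of the 10 as well, and 0 of the 10 had an unadjusted p under 0.05, against 605 of all tested genes. Fitted log2 fold changes lay between -0.34 (E2F1) and 0.15 (E2F7). In CPM, both 24 µg/ml libraries of E2F1, E2F2, E2F3 and E2F4 lay below both control libraries, which was so for 17.8% of tested genes. Both lay above for 0 of the 10, against 18.6% of tested genes.

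At 240 µg/ml against control 4 of 10 were called lower and 0 higher, where 10.3% of tested genes were called, 5.17% lower and 5.16% higher. Both libraries lay below both control libraries in CPM for 7 of the 10 and above for 0, against 32.2% below and 33.8% above among tested genes. The median log2 fold change of the 10 was -0.56, against 0.01 over all tested genes. The count of 4 became 0 without control replicate 1, without control replicate 2 or without 240 µg/ml replicate 2, 1 without 240 µg/ml replicate 1, and 6 without either library of 480 µg/ml.

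At 480 µg/ml 6 of 10 were called lower and 0 higher than in control, where 27.8% of tested genes were called, 13.9% lower and 13.9% higher. The same 6 genes (E2F1, E2F2, E2F3, E2F5, E2F8 and RBL1) had both libraries below both control libraries in CPM, against 30.3% of tested genes. Both lay above for 0 of the 10, against 31.8% of tested genes. Their median with the other 4 was -0.89, against 0.01 over all tested genes. E2F1, E2F2, E2F3, E2F5 and E2F8 kept the call in all 16 alternatives of this comparison.

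Between doses, the step from 24 to 240 µg/ml was called for 4 genes and that from 240 to 480 µg/ml for 0. At 240 against 24 µg/ml E2F2 changed by -1.13 ± 0.216 (adjusted p = 0.0233), E2F8 by -1.07 ± 0.2 (adjusted p = 0.0216), E2F1 by -0.90 ± 0.208 (adjusted p = 0.039) and E2F5 by -0.52 ± 0.126 (adjusted p = 0.0438). In this comparison 6.83% of tested genes were called, 3.49% lower and 3.34% higher. In CPM, both libraries of 240 µg/ml lay below both of 24 µg/ml for 7 of the 10 genes and above for E2F4 and RB1, against 31.7% below and 33.2% above among tested genes. This count of 4 became 1 without either control library, 0 without any 1 library of 24 or 240 µg/ml, and 6 without either library of 480 µg/ml. At 480 against 240 µg/ml edgeR called 0.257% of tested genes (0.229% lower and 0.0273% higher), and DESeq2 and limma also called 0 of the 10. An unadjusted p under 0.05 was found for 5 of them, against 2055 of all tested genes. The fitted changes were -1.14 ± 0.238 for E2F2 (adjusted p = 0.116), -0.68 ± 0.216 for E2F1 (adjusted p = 0.266), -0.67 ± 0.209 for E2F8 (adjusted p = 0.262) and -0.56 ± 0.231 for RBL1 (adjusted p = 0.416). Without 480 µg/ml replicate 2, E2F1 (adjusted p = 0.0425) and E2F2 (0.0442) were called lower and RB1 higher (0.0439), and without replicate 1 E2F3 (0.0256) and RBL1 (0.0249) were called lower. These comparisons share groups with those against control.

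The 2 libraries of 480 µg/ml differed in a gene-dependent way. In CPM, replicate 1 over replicate 2 was 1.78-fold for RB1, 1.7-fold for E2F7, 1.68-fold for RBL2, 1.62-fold for RBL1 and 1.44-fold for E2F3. It was 0.674-fold for E2F4 and 0.723-fold for E2F1, and 0.897-fold and 1.11-fold for E2F2 and E2F5. RB1's ratio was larger in size than that of 88.8% of tested genes. The 4 genes with the highest ratio have long transcripts: the exons of RB1, E2F7, RBL2 and RBL1 cover 6452, 6303, 7320 and 5954 bases, against 3582 and 2503 for E2F4 and E2F1. E2F5 and E2F2, with 5928 and 5457 bases, had ratios near 1. For E2F5, however, the deposited TPM rests on a shorter length than for E2F4 or RB1. In control replicate 1 E2F5 had 2579 counts at 52.6 TPM, E2F4 1635 at 30.8 TPM and RB1 3103 at 26.4 TPM. E2F5 is therefore not shown to have a long transcript. Exon length, the union of all exons of a gene, was taken for 16656 tested genes whose name stood on only 1 chromosome or scaffold. Across them, Spearman's rho between the log2 ratio of replicate 1 over replicate 2 and exon length was 0.361 at 480 µg/ml. It was -0.211, -0.079 and 0.0474 in control, 24 and 240 µg/ml. Genes of 1 library are not independent replicates, and this is a description. At 480 µg/ml replicate 2 had 3.01% of its counts on 15 mitochondrial genes and replicate 1 had 1.69%, against 1.05% to 2.05% in the other 6 libraries. The part of transcript length or RNA quality in the values of RB1, RBL2, E2F7 and E2F4 was not tested.

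**Figure D4:**
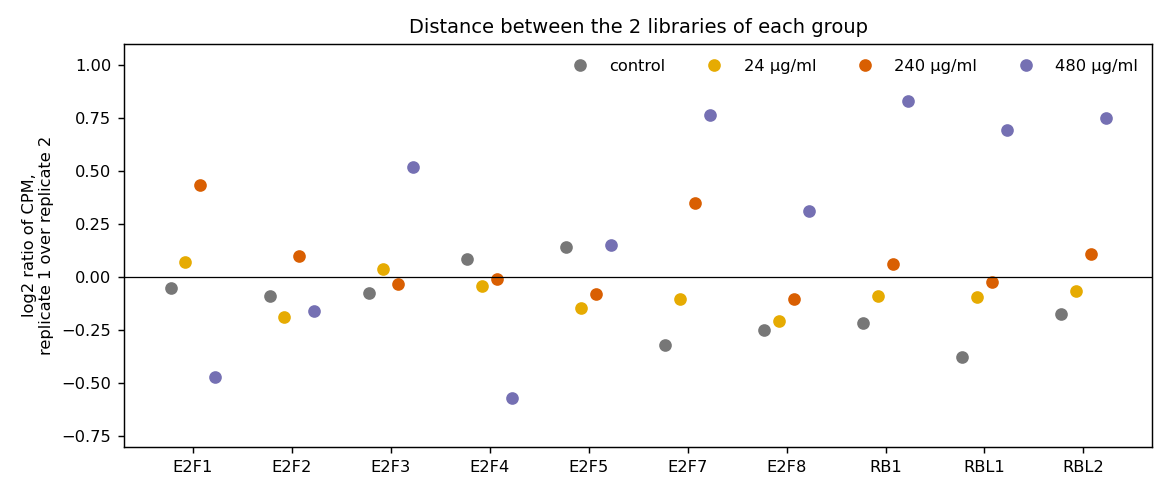
Log2 ratio of CPM between replicate 1 and replicate 2 of each group, per gene. The 480 µg/ml points of RB1, E2F7, RBL2 and RBL1 lie between 0.70 and 0.83, those of E2F1 and E2F4 at -0.47 and -0.57, and most points of the other groups lie nearer 0.

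Of the DP partners and E2F6, 3 genes were tested and 1 was called. The counts of this and the next lists stand beside these shares of all tested genes. At 240 µg/ml 5.17% were called lower and 5.16% higher, and at 480 µg/ml 13.9% lower and 13.9% higher. TFDP2, a DP subunit, was called lower at 480 µg/ml (-0.48 ± 0.145, adjusted p = 0.0371). The call was lost in 11 of 16 alternatives, with an adjusted p of up to 0.213. TFDP1, the main DP subunit, had 41.8 and 44.8 TPM in control, 38.7 and 44.2 at 24, 36.8 and 34.0 at 240 and 37.1 and 31.6 at 480 µg/ml and was not called (-0.29 ± 0.116, adjusted p = 0.0933 at 480 µg/ml), although it was called without either 480 µg/ml library (adjusted p = 0.0497 and 0.0431). E2F6, a repressor that needs no pocket protein, was not called (-0.14 ± 0.124 at 480 µg/ml, adjusted p = 0.423). TFDP3 had at most 2 counts and was not tested.

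Of the 8 genes of the MuvB core and its partners MYB and FOXM1, 3 were called lower at 240 µg/ml (LIN9, MYBL2 and FOXM1) and 4 at 480 µg/ml, with RBBP4 added. FOXM1, the activator of mitotic genes, fell to 14.2 and 13.0 TPM at 480 µg/ml, against 33.0 and 35.1 in control (-1.27 ± 0.115, adjusted p = 0.000271). MYBL2, which replaces the pocket proteins on MuvB in S phase, fell to 7.53 and 7.88 TPM, against 18.1 and 20.1 in control (-1.24 ± 0.142, adjusted p = 0.000617). LIN9 and RBBP4, subunits of the core, changed by -0.98 ± 0.154 and -0.68 ± 0.122 at 480 µg/ml (adjusted p = 0.0023 and 0.00428). The other 4 were not called at 480 µg/ml. Of these LIN37 lay above control, at 0.76 at 240 and 0.71 at 480 µg/ml (adjusted p = 0.0816 and 0.056). LIN52, LIN54 and MYBL1 were at -0.25, -0.07 and -0.10 at 480 µg/ml. Without the filter on low counts 1 gene of the list was called higher at 240 and at 480 µg/ml. At 240 µg/ml 1 gene was also called higher with the 2 groups alone and without both libraries of 480 µg/ml.

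Of 13 cyclin and kinase genes upstream of the pocket proteins, 5 were called lower at 240 µg/ml and 6 at 480 µg/ml, and 0 were called higher. CCND1, the cyclin D1 gene, had 91.9 and 63.7 TPM at 480 µg/ml against 189 and 237 in control (-1.41 ± 0.143, adjusted p = 0.00038). CCNE1, a cyclin of S-phase entry and E2F target, changed by -0.83 ± 0.132 (adjusted p = 0.00246), CDK2, its kinase, by -1.18 ± 0.129 (adjusted p = 0.000508) and CCNA2, the S-phase cyclin A, by -1.71 ± 0.183 (adjusted p = 0.000475). CDC25A, the phosphatase that activates CDK2, changed by -1.44 ± 0.128 (adjusted p = 0.000256). The sixth gene was CDK6, a partner of cyclin D (-0.64, adjusted p = 0.0458), and the other 5 were those called at 240 µg/ml. The count of 6 was 5, with CDK6 not called, without any 1 library of control, 24 or 240 µg/ml and in the fit of control and 480 µg/ml alone, and it was 7 without 480 µg/ml replicate 1 and by DESeq2. CCNE2 stood under 1 TPM in every library and was not called (-0.39 ± 0.445, adjusted p = 0.548).

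Inhibitors of these kinases were called in both directions: of 7 tested, 1 was called higher and 2 lower at 240 µg/ml, and 2 higher and 3 lower at 480 µg/ml. Among all tested genes 5.16% were called higher and 5.17% lower at 240 µg/ml, and 13.9% higher and 13.9% lower at 480 µg/ml. CDKN1A, the p21 gene, had 198 and 177 TPM in control, 329 and 336 at 24, 725 and 697 at 240 and 870 and 1091 at 480 µg/ml. The groups did not overlap, and it rose at 240 µg/ml (2.02 ± 0.19, adjusted p = 0.0013) and 480 µg/ml (2.46 ± 0.193, adjusted p = 0.000137). At 24 µg/ml it was not called (0.82 ± 0.184, adjusted p = 0.67), though it was called in 6 of 17 alternatives, among them DESeq2 (adjusted p = 0.00649) and the fits without 480 µg/ml replicate 1 (0.0308) or 2 (0.0298). CDKN2D, the p19 inhibitor of CDK4 and CDK6, rose at 480 µg/ml (1.505 ± 0.281, adjusted p = 0.00496). CDKN2B, the p15 inhibitor, fell by 1.06 ± 0.149 at 480 µg/ml (adjusted p = 0.00147), and CDKN3, a phosphatase of CDK2 that is made by dividing cells, fell by 1.25 ± 0.162 (adjusted p = 0.00101). CDKN1C, the p57 inhibitor, was the third called lower at 480 µg/ml (-0.83, adjusted p = 0.0323), and the count of 3 was 2 without any 1 library of control or 240 µg/ml. CDKN2A had at most 17 counts and was not tested.

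Known targets of the E2Fs were lower at the higher doses as well. Of 40 G1/S genes, which serve DNA replication and are classical E2F targets, 24 were called lower and 1 higher at 240 µg/ml, and 35 lower and 1 higher at 480 µg/ml. Their median log2 fold change was -0.12 at 24, -0.66 at 240 and -1.14 at 480 µg/ml. MCM7, a subunit of the replicative helicase, had 22.6 and 22.8 TPM at 480 µg/ml against 84.0 and 91.0 in control (-1.86 ± 0.134, adjusted p = 0.000107). UHRF1, needed to copy DNA methylation onto new strands, had 1.58 and 1.48 TPM against 13.4 and 14.9 in control (-3.12 ± 0.14, adjusted p = 5.7e-05). TYMS, the thymidylate synthase gene, whose end is overlapped by ENOSF1 on the opposite strand, was the 1 called higher, at 240 (0.71 ± 0.107, adjusted p = 0.00699) and at 480 µg/ml (0.60 ± 0.107, adjusted p = 0.00394). TYMS was not called at 480 µg/ml without control replicate 1 (adjusted p = 0.0552) or 2 (0.0518), nor at 240 µg/ml without control replicate 1 (0.0938) or 2 (0.0913) or 240 µg/ml replicate 1 (0.0608) or 2 (0.0797).

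All 36 G2/M genes tested, which DREAM, MYBL2 and FOXM1 are known to control, were called lower at 480 µg/ml, and 29 were called lower at 240 µg/ml. Their median was 0.02 at 24, -0.83 at 240 and -1.63 at 480 µg/ml. KIF20A, a kinesin of cytokinesis, changed by -2.28 ± 0.115 at 480 µg/ml (adjusted p = 6.18e-05) and PLK1, a mitotic kinase, by -1.84 ± 0.131 (adjusted p = 0.000107). MKI67, which marks dividing cells, had 21.8 and 24.1 TPM in control, 21.5 and 22.5 at 24, 7.85 and 7.17 at 240 and 6.26 and 2.87 at 480 µg/ml (-2.28 ± 0.236, adjusted p = 0.000411). TOP2A, the other marker of dividing cells, had 92.0 and 105 TPM in control, 102 and 113 at 24, 54.1 and 47.5 at 240 and 42.9 and 18.5 at 480 µg/ml. Both markers stood lower at 240 and 480 µg/ml than in control, as did E2F1, E2F2 and E2F8. At 240 µg/ml MKI67 was called (-1.49 ± 0.23, adjusted p = 0.00779) and TOP2A was not (-0.85, adjusted p = 0.0648). TOP2A was called at 480 µg/ml (-1.67, adjusted p = 0.00209). Between the 2 libraries of 480 µg/ml the ratio of replicate 1 over replicate 2 in CPM was 1.79 for MKI67 and 1.92 for TOP2A. It was 0.723 for E2F1, 0.897 for E2F2 and 1.24 for E2F8. Other G2/M genes were closer between replicate 1 and 2: KIF20A had 10.33 and 10.4 CPM, PLK1 12.96 and 13.87, BIRC5 15.06 and 15.35 and PRC1 17.8 and 15.53. These ratios were not adjusted for exon length. The part of the share of dividing cells in the change of the E2F genes was not tested.

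Of 22 p53 targets, 19 were called higher at 240 and 20 at 480 µg/ml, and 0 lower. The median was 0.59 at 24, 1.05 at 240 and 1.25 at 480 µg/ml. At 24 µg/ml 0 of 22 were called, but 22 of 22 had a log2 fold change above 0, and DESeq2 called 8 of them. The share of all genes that DESeq2 called at this dose is not given here. The count at 24 µg/ml was 9 without 480 µg/ml replicate 1 or 2. MDM2, the p53 ubiquitin ligase, changed by 1.84 ± 0.128 at 480 µg/ml (adjusted p = 0.000107), FDXR by 3.06 ± 0.197 (adjusted p = 0.000105) and the death receptor gene FAS by 2.15 ± 0.174 (adjusted p = 0.000158).

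These list counts at 240 µg/ml were far lower in fits that leave 1 library in the control or the 240 µg/ml group. How far the log2 fold changes moved in these fits depended on the gene. That of MYBL2 lay between -0.68 and -0.62 and that of CCNA2 between -1.06 and -0.64. Without control replicate 1 or 2 the G1/S count of 24 was 3 or 1 and the G2/M count of 29 was 3 or 5. Without 240 µg/ml replicate 1 or 2 they were 4 or 1 and 5 or 2. The MuvB count of 3 was 0 in each of these 4 fits and 1 or 2 without 24 µg/ml replicate 1 or 2. The cyclin count of 5 was 0 or 0 without control replicate 1 or 2, 1 or 0 without 240 µg/ml replicate 1 or 2, and 2 without either library of 24 µg/ml. The p53 count of 19 was 10 or 6 without control replicate 1 or 2 and 14 or 10 without 240 µg/ml replicate 1 or 2. The count of 2 inhibitor genes called lower was 1 without any 1 library of control, 24 or 240 µg/ml and 3 without either library of 480 µg/ml. Without 480 µg/ml replicate 1 or 2 the G1/S count was 36 or 35 and the G2/M count 36 in each case. At 480 µg/ml the G1/S count of genes called lower stayed between 31 and 38, the G2/M count between 34 and 36 and the p53 count between 18 and 22 over all alternatives.

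**Figure D5:**
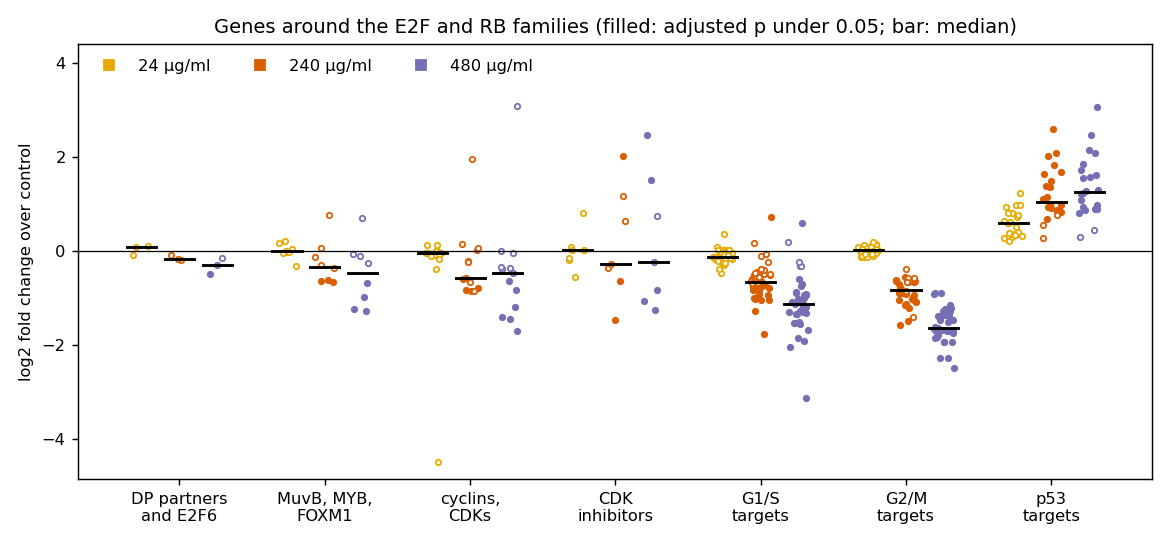
Log2 fold change over control of each gene of 7 lists at 24, 240 and 480 µg/ml (points, filled where the adjusted p is under 0.05) with the median of each list (bars). G1/S and G2/M medians step down to -1.14 and -1.63 at 480 µg/ml, and the p53 target median reaches 1.25.

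The genes whose log2 CPM resembled each of the 10 most closely over the 8 libraries were sought among 9895 tested genes whose average log2 CPM reached 3. For E2F1 they were MT1F (Pearson r = 0.9971), GAB2 (0.9938) and KIAA0040 (0.9909). For E2F2 they were MCM7 (0.9973), AKR1B10 (0.996) and UHRF1 (0.9959), and for E2F8 PXYLP1 (0.9969), RASSF9 (0.9957) and NASP (0.9956). RBL1 lay closest to CIP2A (0.9917), E2F3 to SEMA3D (0.9964) and E2F5 to ANP32B (0.9916). RB1, RBL2, E2F7 and E2F4 lay closest to LNX2 (0.9849), GNAQ (0.9963), ERO1A (0.9831) and DDA1 (0.9756). The 8 libraries share 4 doses, so any gene that changes with dose gives a high value, and no test was made.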

How the data were processed

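Poly(A) RNA of 8 libraries, 2 in each of 4 groups, had been sequenced from TruSeq stranded libraries, per the labels' protocols. The submitters' processing notes name the build GRCh38 (hg38) and the tools StringTie, HISAT2, Bowtie2 and Trimmomatic. Their versions, the annotation and the strand counted are not given in the sources used here. The authors deposited whole-number read counts per gene symbol, which are not normalized, and TPM values, which are scaled per length to a common total. The deposited FPKM values were not used.

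Counts were filtered with filterByExpr, which asked for the equivalent of 10 counts in at least 2 libraries, the group size, and 15 counts in total. They were tested with edgeR 4.0.16 in R 4.3.3 (TMM factors, quasi-likelihood fit over 8 libraries with group as the only term). Its common dispersion was 0.0226, with 4 residual degrees of freedom. P-values were adjusted by Benjamini-Hochberg over 18303 genes, with a threshold of 0.05. Altogether 5 comparisons were made, each dose against control and the 2 steps between doses. TPM was used for levels and for sums. Alternatives were DESeq2 1.42.0, RLE factors, no filter, a filter of 50 counts in 2 libraries, the 2 groups alone, the replicate number as a block, limma 3.58.1 with a pseudocount of 1 or 0.1 on log2 TPM, and the omission of 1 library at a time. A fit without both 480 µg/ml libraries was added after the data were seen. Where a library was left out of a group, the lone library is assumed to vary like the other groups. The fit was also run on simulated counts drawn with 1 common dispersion for all genes and groups. These do not hold the wider spread at 480 µg/ml, and no result here rests on them.

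The 10 genes and the lists were chosen with earlier results of these data known. From each list up to 4 genes with the smallest p at 480 µg/ml are named, with genes called against the list's direction and a fixed set (TFDP1, TFDP2, E2F6, MYBL2, FOXM1, CDKN1A, CCNE1, CCNE2, CCND1, CCNA2 and MKI67). Not every gene so named is given, and CDK6 and CDKN1C were added after their values were seen. The MuvB, cyclin, inhibitor, G1/S, G2/M and p53 lists are from textbook knowledge. CDKN1A is on the inhibitor and p53 lists. Gene positions are from RefSeq GRCh38.p14, where 10 of the 10 symbols matched, and exon overlaps and lengths are from GENCODE on the same assembly.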

Additional observations from a re-analysis of the deposited data

How the results depend on the processing

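Of 830 values recomputed for the 10 genes, 725 kept their direction and their side of the threshold, 46 lost the call, 28 gained one and 8 changed direction by more than 1 SE. Another 23, uncalled under both settings, changed sign by less than 1 SE and lay between -0.08 and 0.13. Counts of genes called lower at 240 µg/ml against control (4) ran from 0 to 6 when 1 library was left out. Those at 240 against 24 µg/ml (4) ran from 0 to 6 likewise and were 2 with the replicate block and 1 by limma on log2(TPM + 0.1). At 480 against 240 µg/ml the count of genes called lower (0) was 1 without the filter and 0 to 2 without 1 library. The count called higher (0) ran from 0 to 1 without 1 library at 480 µg/ml against control and at 480 against 240 µg/ml. Values that changed direction without 480 µg/ml replicate 1 were E2F4 (0.22 at 480 µg/ml against control and 0.19 at 480 against 240 µg/ml), E2F7 (-0.37 and -0.33), RB1 (-0.29 and -0.40) and RBL2 at 480 against 240 µg/ml (-0.40, and -0.61 against control). Without 480 µg/ml replicate 2 the values at 480 µg/ml against control and against 240 µg/ml were 0.15, a change of direction, and 0.36 for RBL2, 0.55 and 0.44 for RB1, 0.41 and 0.44 for E2F7, and -0.34 against control for E2F4. The cause was not tested. Replicate numbers did not pair the libraries: correlations of replicate differences between groups lay between -0.0797 and 0.0449, and the block changed none of the 0, 4 and 6 calls against control at 24, 240 and 480 µg/ml. The median log2 fold change over all genes was furthest from 0 by limma on log2(TPM + 0.1) at 240 against 24 µg/ml, at -0.09, against 0.01 by edgeR.

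With 2 libraries a group and 4 residual degrees of freedom, a difference that missed the threshold is not shown to be absent. E2F2 rested on 28 and 34 counts at 480 µg/ml. Fits without a control or a 240 µg/ml library have 1 library in that group.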
